A study of Homo sapiens with 6 samples.

Results

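Interferon-stimulated genes were examined as a group of 59 named genes in lung cancer cells treated with an EGFR inhibitor. The members were given as a list of gene symbols by a rule that used no measured value, but the list was chosen with earlier results of these data known. All 59 were among the 28395 genes in the table. HCC827 cells are a long-established human line from a lung adenocarcinoma whose EGFR gene has an activating deletion. The control group was HCC827 treated with the solvent DMSO for 24 h, and the treated group was HCC827 treated with 1 μM erlotinib, an inhibitor of the EGFR kinase, for 24 h. Each group held 3 poly(A)-selected RNA libraries, named DMSO1 to DMSO3 and Erlo4 to Erlo6, with 20760204 to 24641819 reads on genes per library. All libraries came from the same cell line, nothing in the sample labels says that they came from separate cultures, and no interferon was listed among the treatments.

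Interferons are secreted proteins that bind receptors on the cell surface and turn on JAK kinases, which phosphorylate STAT transcription factors. Type I and type III interferons act mainly through a complex that contains STAT2 and IRF9 and binds the interferon-stimulated response element, whereas interferon gamma acts through STAT dimers that bind the gamma-activated site. The genes switched on in this way encode sensors of foreign RNA and DNA, enzymes that degrade RNA or stop translation, and proteins that block virus entry or release, and epithelial cells of the airway are among the cells that use them.

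Most interferon-stimulated genes were higher after erlotinib. Of the 58 members that passed the filter on low values, 46 were higher (79.3%), 4 were lower and 8 were neither, at an adjusted p under 0.05 in limma. Among all 14215 genes tested, 35.3% were higher and 35.4% were lower. With libraries scaled to their total count, 50 members were higher and 3 were lower, and the split of all genes moved from 5012 higher and 5031 lower to 6156 and 3955. The member that did not pass the filter was IFITM2, listed at 0, 0 and 4.28 in the DMSO libraries and at 12.9, 7.92 and 4.68 in the erlotinib libraries. The values are signal, meaning reads per gene divided by 1 size factor per library, and a fold change is the difference of the mean log2(signal + 1) of the groups.

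The median log2 fold change of the 58 members was 0.83, a 1.78-fold higher signal, against 0.02 for all genes tested, and 78.7% of all tested genes had a lower fold change than this median. Among the members, 23 rose by at least 1 log2 unit with a called change, which was 39.7% of the members tested and compares with 17% of all tested genes. In 46 members every erlotinib library lay above every DMSO library, compared with 36.7% of all tested genes, and in 4 members every erlotinib library lay below, compared with 36.9%. Members spanned log2 fold changes from -1.39 for OAS3 to 3.74 for MX2. RTP4 and TRIM22 averaged a signal under 10 in DMSO and passed the filter through their erlotinib libraries, and of the 56 members at 10 or more in DMSO, 44 were higher and 4 were lower. All genes were not counted at that DMSO filter. With at least 10 reads required in every library, 42 of 54 members were higher and 4 were lower. Of the 12859 genes that passed this requirement, 4354 were higher and 4925 were lower. The p-values measure only the spread between these libraries, which may be technical, and in bulk RNA a change in the number of cells that express a gene cannot be told apart from a change in RNA per cell.

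**Figure D1:**
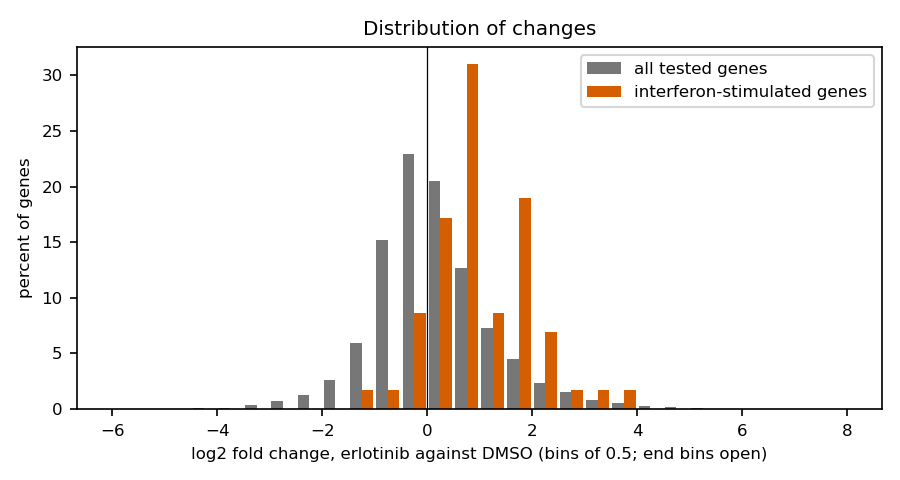
Percent of genes (y axis) in bins of 0.5 of the log2 fold change of erlotinib against DMSO (x axis), for all 14215 tested genes in grey and the 58 tested interferon-stimulated genes in orange. The members sit to the right of all genes, with medians of 0.83 and 0.02.

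The epithelial origin of the cells was checked against marker genes. All 6 epithelial markers were abundant, led by KRT7, a simple-epithelium keratin at a signal of 114926 to 128989 in DMSO and 76688 to 82404 with erlotinib. Of these 6, 4 (KRT7, KRT8, KRT18 and KRT19) were lower with erlotinib (66.7%, against 35.4% of all tested genes) and none was higher. Of 9 leukocyte markers, 2 passed the filter, and PTPRC, CD3E, LYZ and NCAM1 stayed under a signal of 10 in every library. The summed leukocyte signal was 2919 to 3310 in DMSO and 3333 to 3668 with erlotinib, nearly all of it from CD68, a lysosomal protein that epithelial cells also express. Of 7 fibroblast and endothelial markers, 3 passed the filter. Their summed signal was 91.0 to 127 in DMSO and 257 to 315 with erlotinib, most of it from COL1A1 (log2 fold change 1.47), while COL1A2 and PDGFRB stayed under 10 in every library. VWF, an endothelial blood-clotting factor, was also higher, with 3.403, 0.929 and 7.49 in DMSO and 35.1, 25.7 and 21.5 with erlotinib (log2 fold change 2.74 ± 0.64, limma adjusted p = 0.00066), and it passed the filter through its erlotinib libraries. LUM, which was not tested, had 2.27, 3.72 and 6.42 in DMSO and 9.23, 9.9 and 18.7 with erlotinib, and PECAM1 did not pass (limma adjusted p = 0.348). The part of these markers in the results was not tested.

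The transcription factors that carry the interferon signal were described first. STAT2 (chromosome 12, 56341597 to 56360107 in GRCh38), the subunit of the type I response complex that brings the activation domain, had a signal of 947, 1078 and 1010 in the DMSO libraries and of 3662, 3679 and 3620 in the erlotinib libraries. The erlotinib libraries lay close together and all far above the DMSO libraries. The log2 fold change was 1.85 ± 0.07 (standard error), with an adjusted p of 7.5e-15 in limma. IRF9 (chromosome 14, 24161265 to 24166565), the DNA-binding subunit of the same complex, had 413, 388 and 398 in DMSO and 1033, 1055 and 1255 with erlotinib, a log2 fold change of 1.47 ± 0.10 (limma adjusted p = 3.9e-11). The groups were again apart, with Erlo6 the highest. A transcript model annotated under another identifier shares 93.1% of the IRF9 transcript, so the value of IRF9 depends on how reads in the shared stretch were assigned.

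IRF1 (chromosome 5, 132481609 to 132490773), a factor that is itself induced by interferon gamma and binds related sites, had 1315, 1168 and 1179.5 in DMSO and 2145, 2247 and 2183 with erlotinib. Its groups did not overlap, at a log2 fold change of 0.85 ± 0.08 (limma adjusted p = 3.6e-09). IFI35, which binds NMI in a cytosolic complex, rose by a log2 fold change of 0.87. NMI itself (chromosome 2, 151270470 to 151289668) had 579.7, 740.2 and 637 in DMSO and 756, 774 and 704 with erlotinib, overlapping groups and a log2 fold change of 0.20 ± 0.10 that did not pass (limma adjusted p = 0.092). Of the 5 factors and partners, 4 were thus higher (80%, against 35.3% of all tested genes) and none was lower (against 35.4%).

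**Figure D2:**
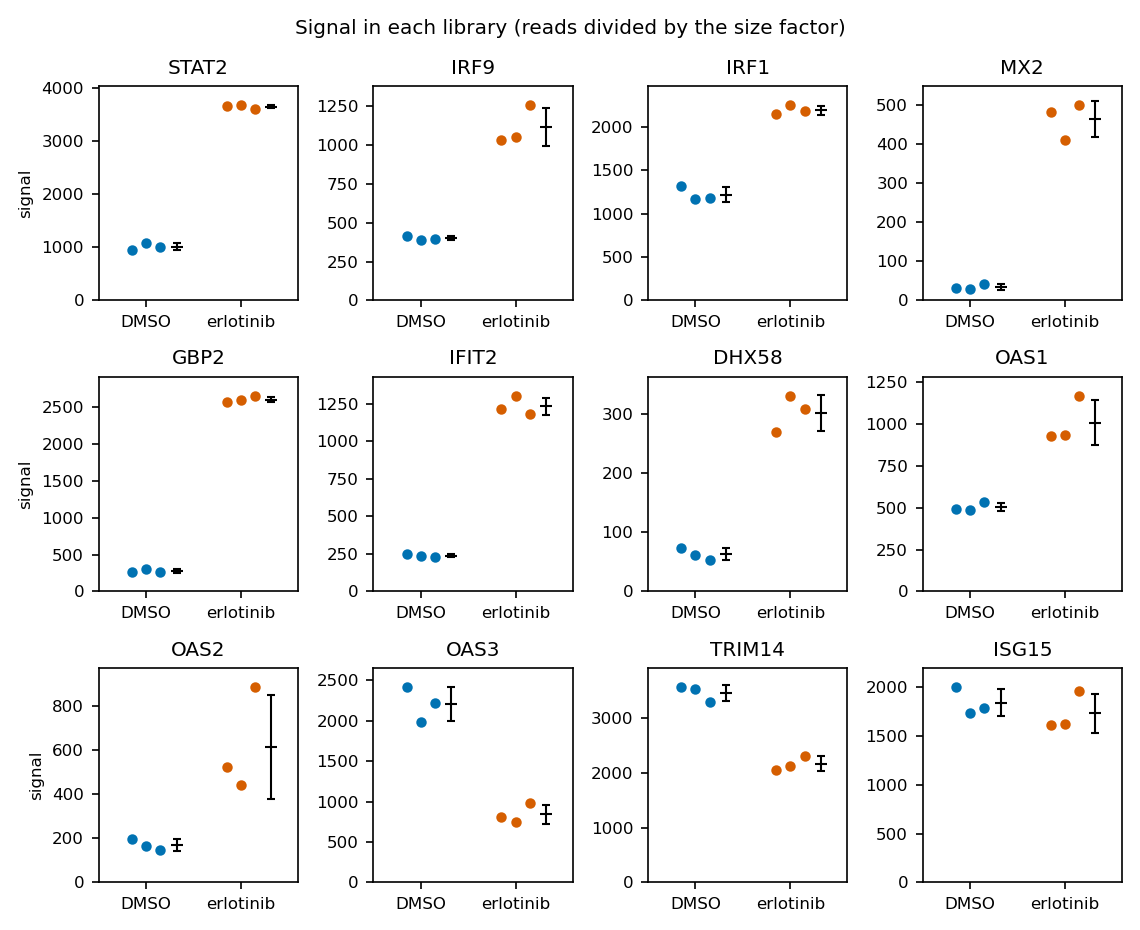
Signal (y axis, reads divided by the size factor, from 0) of 12 members in each of the 3 DMSO libraries (blue) and 3 erlotinib libraries (orange), with black bars for the mean ± SD of each group. STAT2, IRF9, IRF1, MX2, GBP2, IFIT2, DHX58, OAS1 and OAS2 sit higher with erlotinib, OAS3 and TRIM14 sit lower, and the groups of ISG15 overlap.

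Promoters were read to see whether the letters of the corresponding binding sites accompany the direction of change. RefSeq promoter sequences of GRCh38.p14, each from 250 bases before to 50 bases after a transcription start, were given for 49 of the 59 members; DHX58, GBP2, IFIT2, IFITM2, MX2, OAS2, OASL, PARP10, TRIM22 and USP18 were not among them. Searched on both strands, the core of the interferon-stimulated response element (GAAA, any pair of bases, GAAA) was found in 33 of the 49 members (67.3%) and in 4.38% of the 27305 genes with a promoter sequence (3.57% of 35116 promoters). The core of the gamma-activated site, TTCNNNGAA, was found in 14 members (28.6%) and in 9.38% of all genes (7.66% of promoters). The cores can overlap, and 38 members (77.6%) held at least 1 of them, as did 13.1% of all genes.

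Members of each direction held the response element core, which was found in 24 of 38 members that were higher (63.2%), in 3 of 4 that were lower (75%) and in 6 of 7 that were neither (85.7%). The gamma-activated core was found in 13 of the 38 that were higher (34.2%), in none of the 4 that were lower and in 1 of the 7 that were neither. A match is a description of letters and not a shown binding site, and these counts were not tested.

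The stretches below run from 160 bases before to 10 bases after the start on the strand of the gene, 5′ to 3′, with matches to either core in capitals. IFITM1 and RSAD2 are shown as members that rose strongly, OAS3 and TRIM14 as the members that fell most, and ISG15 and IRF9, chosen after their values were seen, as a member that passed in neither direction with a response element core and one that rose with a gamma-activated core only. IFITM1 (chr11:313880-314049, plus strand) has a response element core at -40 and -6 and a gamma-activated core at -12, RSAD2 (second start, chr2:6877617-6877786, plus strand) has a response element core at -145, and OAS3 (chr12:112938314-112938483, plus strand) has one at -143 and at -12. TRIM14 (chr9:98119213-98119382, minus strand) has one at -26, ISG15 (chr1:1013337-1013506, plus strand) has overlapping ones at -113 and -107, and IRF9 (chr14:24161105-24161274, plus strand) has a gamma-activated core at -63. Positions are those of the first base of a match, counted from the start site.
IFITM1: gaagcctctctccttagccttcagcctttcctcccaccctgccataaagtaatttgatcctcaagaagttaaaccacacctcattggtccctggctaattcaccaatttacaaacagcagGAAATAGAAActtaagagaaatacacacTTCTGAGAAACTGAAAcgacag
RSAD2: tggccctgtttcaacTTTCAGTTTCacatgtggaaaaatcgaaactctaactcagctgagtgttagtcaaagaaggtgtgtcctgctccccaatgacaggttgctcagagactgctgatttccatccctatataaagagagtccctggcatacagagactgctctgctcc
OAS3: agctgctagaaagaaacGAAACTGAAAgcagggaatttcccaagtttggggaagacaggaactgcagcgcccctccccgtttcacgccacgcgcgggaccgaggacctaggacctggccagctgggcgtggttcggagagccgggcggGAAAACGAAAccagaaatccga
TRIM14: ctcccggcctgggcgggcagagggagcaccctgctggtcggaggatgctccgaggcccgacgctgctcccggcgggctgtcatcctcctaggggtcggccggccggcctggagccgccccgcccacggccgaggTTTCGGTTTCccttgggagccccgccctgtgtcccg
ISG15: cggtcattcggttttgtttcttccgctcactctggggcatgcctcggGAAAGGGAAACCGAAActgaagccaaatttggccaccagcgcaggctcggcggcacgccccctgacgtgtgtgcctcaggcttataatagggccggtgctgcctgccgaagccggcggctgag
IRF9: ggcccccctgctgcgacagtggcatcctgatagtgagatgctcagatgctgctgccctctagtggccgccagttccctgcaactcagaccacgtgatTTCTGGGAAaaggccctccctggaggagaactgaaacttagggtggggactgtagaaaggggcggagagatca
Neither core was found in the promoters of 11 members, of which 9 were higher, STAT2 and XAF1 among them, while TRIM25 was lower and ADAR was neither. The search needed exactly a pair of bases between the GAAA stretches. It did not count closer spacings such as GAAACGAAA, which the promoters of XAF1, IFI16 and TRIM25 hold on either strand. A promoter without a match here is thus not shown to lack a response element. For comparison, 79.3% of all tested members and 35.3% of all tested genes were higher.

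The antiviral GTPases showed the largest changes, and all 5 were higher, against 35.3% of all tested genes (median log2 fold change of the 5, 1.90). MX2 (chromosome 21, 41362027 to 41409393), a dynamin-like GTPase of the nuclear envelope that blocks retroviruses, had a signal of 31.8, 28.8 and 41.7 in the DMSO libraries and of 482, 411 and 498 in the erlotinib libraries. The lowest erlotinib library was far above the highest DMSO library, and the log2 fold change was 3.74 ± 0.19, or 13.3-fold (limma adjusted p = 3.6e-13). GBP2 (chromosome 1, 89106132 to 89126114), a guanylate-binding protein that attacks intracellular microbes, had 259.8, 307 and 261 in DMSO and 2572, 2592 and 2644 with erlotinib. Its erlotinib libraries differed little from each other, and the log2 fold change was 3.24 ± 0.09 (limma adjusted p = 5.1e-17). MX1, the cytoplasmic relative of MX2 that acts against influenza virus, rose by a log2 fold change of 1.90, GBP1 by 1.25 and GBP3 by 0.61.

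Among the sensors of foreign RNA and DNA, all 6 members were higher, against 35.3% of all tested genes (median log2 fold change of the 6, 1.08). DHX58 (chromosome 17, 42101411 to 42112714), which encodes LGP2, a helper of RNA sensing, had 73.7, 62.2 and 52.4 in DMSO and 269, 329 and 307 with erlotinib. The groups were well apart, with a log2 fold change of 2.25 ± 0.18 (limma adjusted p = 5.8e-10). The helicase gene DDX60 rose by 1.40, its neighbour DDX60L by 0.73 and IFI16, a nuclear DNA sensor, by 1.34 on the log2 scale. Of the RNA sensors that begin antiviral signalling, DDX58, which encodes RIG-I, rose by 0.83 and IFIH1, which encodes MDA5, by 0.41. Another annotated transcript model shares 96.6% of the DDX58 transcript.

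The enzymes that act on double-stranded RNA included members called in both directions, with 57.1% higher and 28.6% lower against 35.3% and 35.4% of all tested genes. Of the 7, 4 were higher, OASL (1.86), OAS2 (1.80), OAS1 (0.99) and the exonuclease gene ISG20 (0.83), whereas OAS3 and EIF2AK2 were lower. OAS3 (chromosome 12, 112938474 to 112973251), the largest of the synthetases whose product 2-5A activates RNase L, had 2411, 1987 and 2217 in DMSO and 804, 745 and 977 with erlotinib. Every erlotinib library lay below every DMSO library, and the log2 fold change was -1.39 ± 0.10, or 0.381-fold (limma adjusted p = 6.9e-11). OAS3 was the only member that fell by at least 1 log2 unit.

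EIF2AK2 (chromosome 2, 37099210 to 37156980), which encodes PKR, the kinase that stops translation when it binds double-stranded RNA, had 2267, 2360 and 2117 in DMSO and 1667, 1578 and 1739 with erlotinib. The groups did not overlap, and the log2 fold change was -0.44 ± 0.07 (limma adjusted p = 2.7e-05). ADAR (chromosome 1, 154582057 to 154627997), the enzyme that edits adenosine to inosine in double-stranded RNA, had 14935, 15022 and 14127 in DMSO and 14413, 14945 and 15491 with erlotinib. Its libraries overlapped between groups, and its log2 fold change of 0.02 ± 0.06 did not pass (limma adjusted p = 0.731).

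All 6 tested membrane-associated factors were higher, against 35.3% of all tested genes (median log2 fold change of the 6, 1.32). RSAD2 (chromosome 2, 6865885 to 6898239), which encodes viperin, an enzyme that makes a chain-terminating nucleotide, had 20.4, 5.57 and 11.8 in DMSO and 70.1, 68.3 and 78.6 with erlotinib. The groups did not overlap, and the log2 fold change was 2.59 ± 0.40 (limma adjusted p = 8.7e-06), with no more than 18 reads in any DMSO library. With a pseudocount of 10 in place of 1 the log2 fold change of RSAD2 was 1.92, without DMSO2 it was 2.15 and without DMSO1 it was 3.00, and it passed each time. Its neighbour CMPK2, a mitochondrial nucleotide kinase gene, was also low and rose by 1.88 ± 0.52 (1.19 to 2.41 over the alternatives), and 751 bases of the 2 genes overlap. IFITM1 (chromosome 11, 314040 to 315272), which hinders the fusion of viruses with the cell membrane, had 60.1, 37.2 and 58.9 in DMSO and 253, 275 and 331 with erlotinib. The erlotinib libraries were all above the DMSO libraries, and the log2 fold change was 2.46 ± 0.21 (limma adjusted p = 1.2e-09).

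The other membrane factors had smaller log2 fold changes. PLSCR1, a phospholipid scramblase, rose by 0.76, IFITM3, which blocks viruses in endosomes, by 0.72 and BST2, the tether that holds budding virus on the cell, by 0.35 on the log2 scale. Another annotated transcript model shares 57.2% of the IFITM1 transcript. IFITM2 and IFITM3 are known as close paralogs, and whether reads were lost between them was not tested.

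The IFIT proteins bind the 5′ ends of foreign RNA or associate with those that do. Of their 4 genes, 3 were higher (75%, against 35.3% of all tested genes). IFIT2 (chromosome 10, 89302046 to 89309271) had 247, 238 and 229 in DMSO and 1213, 1297 and 1182 with erlotinib. The libraries of each group lay close together, and the log2 fold change was 2.36 ± 0.10 (limma adjusted p = 1.9e-14). IFIT3 rose by 1.09 and IFIT1 by 0.67. IFIT5 (chromosome 10, 89414568 to 89420997) had 673, 683 and 592 in DMSO and 671, 613 and 749 with erlotinib, overlapping groups and a log2 fold change of 0.06 ± 0.10 (limma adjusted p = 0.613). The 4 genes overlap the annotated span of LIPA, a lysosomal lipase gene that was lower with erlotinib (log2 fold change -0.32), and reads of overlapping genes cannot be told apart where strand was not used.

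The ISG15 conjugation system was the group with the lowest median (0.24), and 2 of its 5 members were higher (40%), a share near the 35.3% of all tested genes. ISG15 (chromosome 1, 1013497 to 1014540), the ubiquitin-like protein that is joined to other proteins, had 1999, 1740.4 and 1784 in DMSO and 1613, 1622 and 1963 with erlotinib. Erlo6 lay among the DMSO libraries and the other erlotinib libraries lay below them, and the log2 fold change of -0.09 ± 0.09 did not pass (limma adjusted p = 0.354) and was 0.09 when each library was scaled to its total count. UBE2L6, the conjugating enzyme for ISG15, rose by 0.98, and the ligase HERC6 by 0.68. HERC5, the main human ligase for ISG15, had a log2 fold change of 0.24 ± 0.27 at a mean signal of 57.0 in DMSO.

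USP18 (chromosome 22, 18150170 to 18177397), which removes ISG15 and damps the interferon receptor, had 81.7, 82.7 and 87.8 in DMSO and 51.7, 42.6 and 96.4 with erlotinib. Erlo6 was the highest of all libraries and the other erlotinib libraries were the lowest, and the log2 fold change was -0.49 ± 0.27 (limma adjusted p = 0.118). Without Erlo6 it was -0.83, with an adjusted p of 0.012 in limma.

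Of the PARP genes and DTX3L, 4 of 5 were higher (80%, against 35.3% of all tested genes). PARP10 rose by 1.53 and PARP14 by 1.51, both mono-ADP-ribosyltransferases, and PARP9 (0.60) and its partner ligase DTX3L (0.68) rose by similar amounts. PARP12 (chromosome 7, 140023749 to 140062951), another mono-ADP-ribosyltransferase, had 1543, 1331 and 1569 in DMSO and 1317, 1255 and 1482 with erlotinib. The groups overlapped, and the log2 fold change was -0.13 ± 0.09 (limma adjusted p = 0.185), or 0.05 with libraries scaled to their total count. PARP10 overlaps GRINA over 3360 bases, and GRINA had a log2 fold change of 0.45.

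Of the TRIM ligases and nuclear body genes, 4 of 6 were higher (66.7%, against 35.3% of all tested genes) and 2 were lower (33.3%, near the 35.4% of all tested genes). TRIM14 (chromosome 9, 98035797 to 98119222), an adaptor of mitochondrial antiviral signalling, had 3567, 3548 and 3305 in DMSO and 2054, 2127 and 2319.6 with erlotinib. All erlotinib libraries were below all DMSO libraries, and the log2 fold change was -0.68 ± 0.07 (limma adjusted p = 3.3e-08). TRIM14 overlaps NANS, a sialic acid synthase gene with a log2 fold change of -1.58, over 26346 bases, and the part of NANS reads in the value of TRIM14 was not tested. TRIM25 (chromosome 17, 56887909 to 56914049), the ubiquitin ligase that assists RIG-I, had 11053, 10936 and 10617 in DMSO and 8976, 9503 and 9880.2 with erlotinib. Its groups did not overlap, but the fall was small, at a log2 fold change of -0.20 ± 0.06 (limma adjusted p = 0.007), and with libraries scaled to their total count it was -0.02 and no longer passed (limma adjusted p = 0.743). TRIM22, at no more than 13 reads in a DMSO library, rose by 1.89 ± 0.48 (1.23 to 2.12 over the alternatives). TRIM21, a cytosolic antibody receptor, rose by 0.75, and the nuclear body genes SP100 and SP110 by 0.65 and 0.33. SP110 no longer passed without DMSO3, Erlo5 or Erlo6 (limma adjusted p = 0.054, 0.056 and 0.055).

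**Figure D3:**
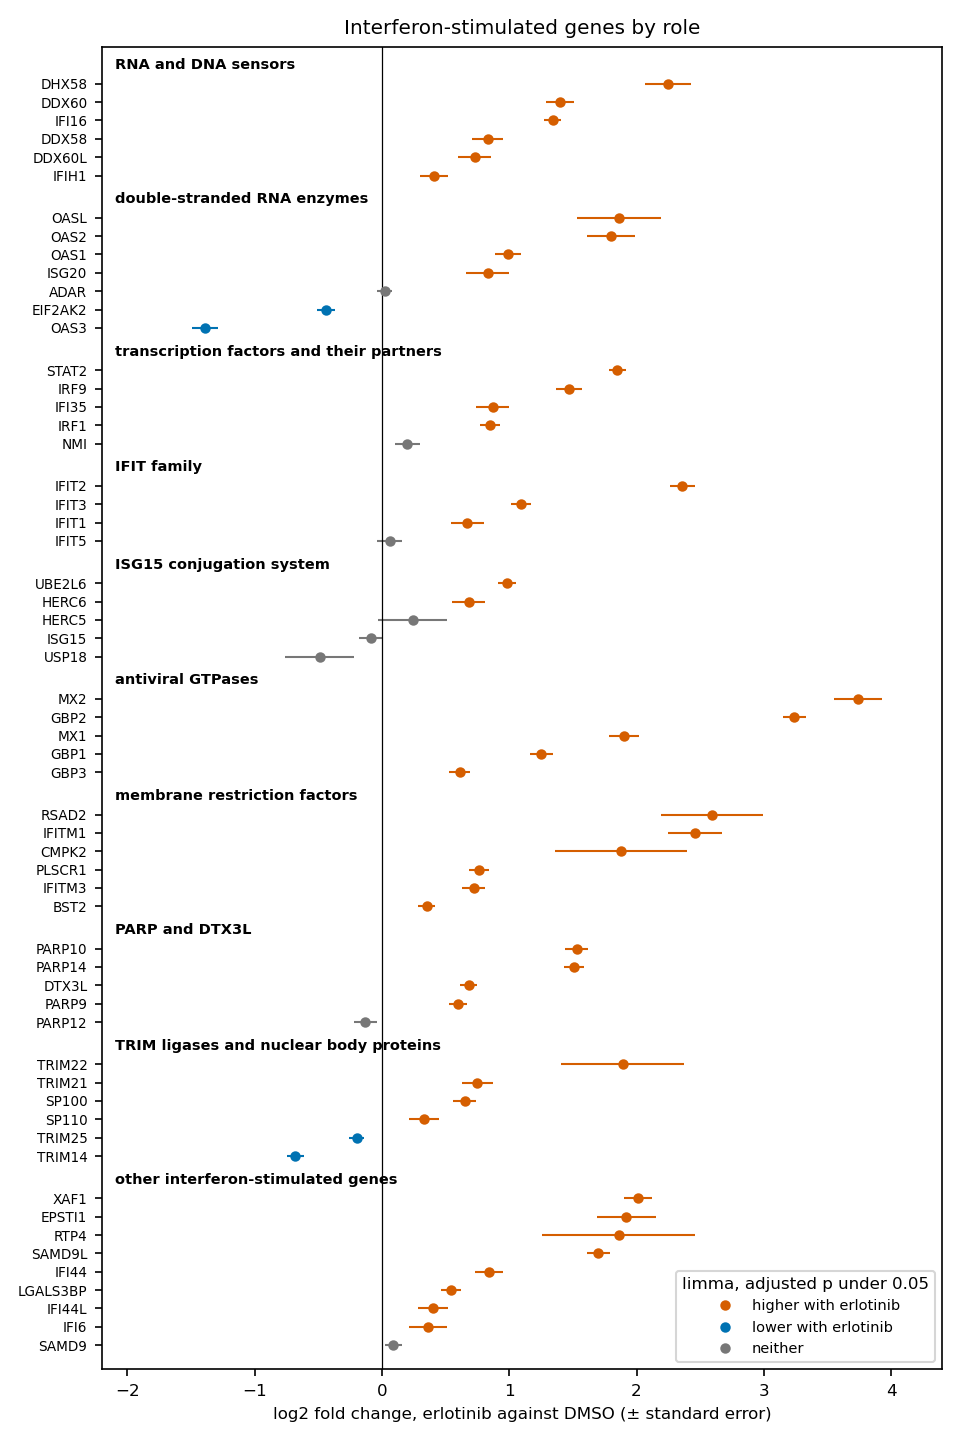
Log2 fold change of erlotinib against DMSO (x axis, points, with bars for the standard error) of the 58 tested members, grouped by role on the y axis. Orange points are the 46 members that were higher, blue points the 4 that were lower and grey points the 8 that were neither in limma. All sensors, GTPases and tested membrane factors are orange, and the double-stranded RNA enzymes and the ISG15 system are mixed.

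Of the 9 remaining members, 8 were higher (88.9%, against 35.3% of all tested genes). XAF1 (chromosome 17, 6755447 to 6775647), an antagonist of the apoptosis inhibitor XIAP, had 279, 235 and 275 in DMSO and 924, 1114 and 1150.4 with erlotinib. The groups were far apart, with a log2 fold change of 2.01 ± 0.11 (limma adjusted p = 1.9e-12), and a noncoding transcript, PRAL, shares 74.2% of the XAF1 transcript. EPSTI1 (chromosome 13, 42886388 to 42992241), a stromal-interaction gene, had 57.9, 31.6 and 46.0 in DMSO and 154, 182 and 172 with erlotinib, again without overlap and with a log2 fold change of 1.92 ± 0.23 (limma adjusted p = 2.9e-07). RTP4 rose by 1.86 ± 0.60 from no more than 8 reads in a DMSO library, with 1.00 to 2.21 over the alternatives and no call without Erlo6 (limma adjusted p = 0.057). SAMD9L rose by 1.70, IFI44 by 0.84, IFI44L by 0.40 and IFI6 by 0.36. IFI44L was at 0.22 without Erlo6 (limma adjusted p = 0.079) and IFI6 at 0.15 without DMSO2 (limma adjusted p = 0.235), and neither passed there.

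IFI6, a mitochondrial protein gene, was the one member called higher whose groups overlapped, with 532, 305 and 416 in DMSO and 493, 527 and 549 with erlotinib, and it no longer passed with DESeq2 (adjusted p = 0.055). SAMD9 (chromosome 7, 93099518 to 93117979), an antiviral growth inhibitor gene, had 3477, 3567.1 and 3271 in DMSO and 3567.6, 3567.8 and 3867 with erlotinib. Its erlotinib libraries lay just above the DMSO libraries, and its log2 fold change of 0.09 ± 0.07 did not pass (limma adjusted p = 0.227). With total-count scaling the median of all genes was 0.19, and SAMD9 (0.27), ADAR (0.20), NMI (0.38) and IFIT5 (0.24) then passed as higher in limma.

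Per kilobase of transcript the most abundant member was LGALS3BP (chromosome 17, 78971255 to 78979923), a secreted glycoprotein gene, at a mean signal per kilobase of 2913 in DMSO and 4209 with erlotinib. Its signal was 6971, 5601 and 6669 in DMSO and 9213, 8760.2 and 9829 with erlotinib. The groups did not overlap, and the log2 fold change was 0.54 ± 0.08 (limma adjusted p = 2.7e-06). In DMSO it was followed by ISG15 (2890.3 per kilobase, 2719.8 with erlotinib) and ADAR (2223, and 2262 with erlotinib), and with erlotinib by IFITM3 (2774, from 1691 in DMSO) and ISG15. By the same measure MX2 stood at 10.0 per kilobase in DMSO and 136 with erlotinib and GBP2 at 67.5 and 637.

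Members that lie next to each other in the genome were compared. With a gap of at most 100000 bases, 27 members fell into 11 groups of neighbours, and in 6 groups all members were higher, where 79.3% of all tested members and 35.3% of all tested genes were higher. Neighbours among all genes were not counted. In the OAS group on chromosome 12, OAS3 lies between OAS1 and OAS2, and this was the one group with members changed in both directions (0.99 for OAS1, -1.39 for OAS3 and 1.80 for OAS2). OAS1 had a signal of 495, 484 and 532 in DMSO and 927, 933 and 1165 with erlotinib, and OAS2 had 197, 164 and 148 in DMSO and 524, 441 and 886 with erlotinib, so that both were higher in every erlotinib library. The signal of OAS3 over that of OAS1 was 4.87, 4.11 and 4.17 in the DMSO libraries and 0.868, 0.798 and 0.839 in the erlotinib libraries. The signal of OAS3 thus exceeded that of OAS1 in every DMSO library and lay below it in every erlotinib library. The OAS3 transcript is also longer, at 6599 bases against 1631 for OAS1. Per kilobase the mean signal of OAS3 and OAS1 was 334.1 and 308.7 in DMSO, and 127.6 and 617.9 with erlotinib. The signal of OAS3 over that of OAS2 was 12.1 to 15 in DMSO and 1.1 to 1.69 with erlotinib. With 3 against 3 libraries no exact permutation p can fall below 0.1.

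Within the IFIT group on chromosome 10 the log2 fold changes ran from 2.36 for IFIT2 and 1.09 for IFIT3 to 0.67 for IFIT1 and 0.06 for IFIT5, in chromosomal order. In the GBP group on chromosome 1 they ran from 0.61 for GBP3 and 1.25 for GBP1 to 3.24 for GBP2. The ratio of GBP2 to GBP3 was 0.141 to 0.153 in DMSO and 0.9 to 0.945 with erlotinib, and that of MX2 to MX1 was 0.138 to 0.181 in DMSO and 0.51 to 0.628 with erlotinib. SAMD9L over SAMD9, genes that arose by duplication, went from 0.231 to 0.273 in DMSO to 0.697 to 0.821 with erlotinib. None of these ratios overlapped between groups.

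**Figure D4:**
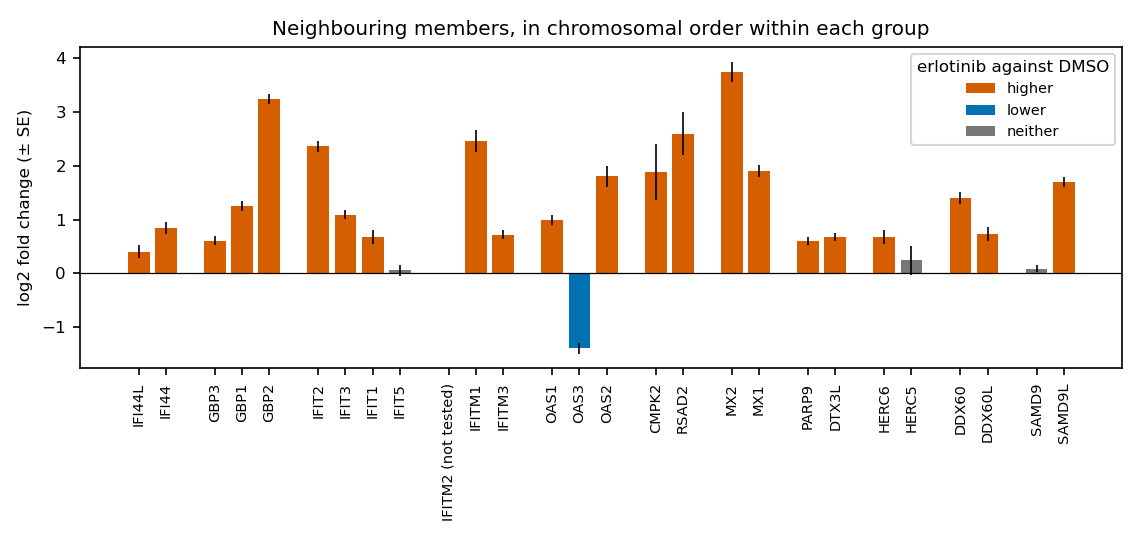
Log2 fold change of erlotinib against DMSO (y axis, bars from 0, with the standard error) of the 27 members that have another member within 100000 bases, in chromosomal order within each of the 11 groups (x axis). OAS3 at -1.39 is the only bar below 0, between OAS1 at 0.99 and OAS2 at 1.80, and IFITM2 was not tested.

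The libraries agreed on the rise but not on its size. The summed signal of the members was 81122, 80143 and 77989 in the DMSO libraries, or 0.343% to 0.35% of the library's signal, and 110079, 110201 and 119332 in Erlo4, Erlo5 and Erlo6, or 0.536% to 0.588%. Erlo6 held the highest value of the 3 erlotinib libraries for 41 of the 58 tested members (70.7%), compared with 32.7% of all tested genes and 33.9% of the genes called higher. The median log2 difference of a member from the mean of its group was 0.09 in Erlo6, -0.04 in Erlo4 and -0.05 in Erlo5, and the median over all genes was 0.00 in each. Without Erlo6, 42 members were higher and 5 were lower in limma, with 4588 of all genes higher and 4730 lower. IFI44L, RTP4, SP110 and IFI6 then no longer passed, and USP18 passed as lower.

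**Figure D5:**
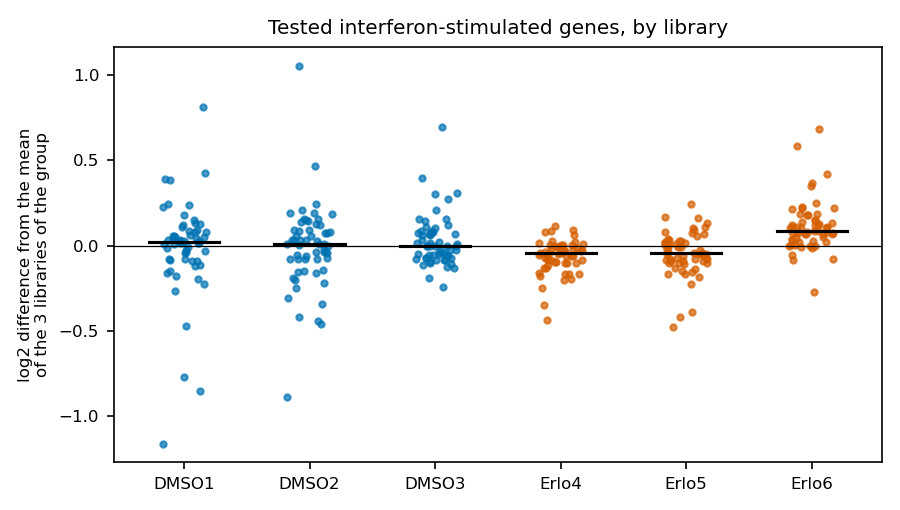
Log2 difference of each of the 58 tested members from the mean of its own group (y axis) in each of the 6 libraries (x axis), with a point per member and a black line for the median. The median of Erlo6 lies at 0.09, above those of Erlo4 (-0.04) and Erlo5 (-0.05).

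Genes of the same pathway that are not members were listed by role, in 6 lists with 53 genes, of which 32 passed the filter. Of these, 21 were higher (65.6%, against 35.3% of all tested genes) and 7 were lower (21.9%, against 35.4%), and their median log2 fold change was 0.45, against 0.02 for all. Interferons themselves were near the limit of detection. Of 21 interferon genes, 18 had 0 reads in every library, IFNB1 and IFNA21 had 6 and 2 reads in all, and a count of 0 allows up to 3 reads, a signal of 2.77 to 3.4 in a library (counting error only). The transcripts of IFNA1 and IFNA13 (99.1% identity) and of IFNL2 and IFNL3 (97.9%) are nearly alike, and the authors counted uniquely mapped reads, so reads of these genes can be lost beyond that limit. IFNE, an epithelial type I interferon, was the one tested, with 11.3, 20.4 and 14.98 in DMSO and 37.8, 30.7 and 23.4 with erlotinib. These groups did not overlap, at a log2 fold change of 0.94 ± 0.41 that passed narrowly (limma adjusted p = 0.048). IFNE had no more than 22 reads in any DMSO library. Overlapping genes were looked up for members only, so the part of other genes' reads in the IFNE value was not tested.

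Of the 6 receptor chains, 5 were higher (83.3%, against 35.3% of all tested genes) and 1 was lower (16.7%, against 35.4%). IFNGR2 (0.87), a chain of the interferon gamma receptor, and IL10RB (0.85), a chain of the type III receptor, rose most, followed by IFNAR2 (0.69), IFNGR1 (0.48) and IFNAR1 (0.20), whereas IFNLR1, the chain specific to type III interferon, fell by 0.46 on the log2 scale. Of the receptor kinases, JAK1 rose by 0.44 and TYK2 by 0.40, and JAK2 stood at 0.02 (limma adjusted p = 0.914). The transcripts of IFNAR2 and IL10RB are also part of an annotated readthrough gene.

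The 10 adaptors and kinases of the sensing pathways were split, with 5 higher (50%) and 4 lower (40%), compared with 35.3% and 35.4% of all tested genes. TLR3, the endosomal receptor for double-stranded RNA, had 142, 115 and 138 in DMSO and 533, 531 and 550.4 with erlotinib. The groups were far apart, with a log2 fold change of 2.03 ± 0.13 (limma adjusted p = 2.3e-11). CGAS, the cytosolic DNA sensor, had 321, 348 and 365 in DMSO and 132, 180.2 and 111 with erlotinib. It was lower in every erlotinib library, with a log2 fold change of -1.31 ± 0.17 (limma adjusted p = 5.2e-07). TRAF3 (-0.51), IRF3 (-0.50) and TBK1 (-0.21), which relay the sensors' signal to interferon genes, were also lower. TMEM173, which encodes STING, was higher (0.77), as were MYD88 (0.59), IKBKE (0.57) and MAVS (0.29) of the same list.

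Of 7 brakes on interferon signalling, 3 were higher (42.9%) and 2 were lower (28.6%), shares near the 35.3% and 35.4% of all tested genes. SOCS3, an inhibitor of cytokine receptors, had 840, 821 and 853 in DMSO and 1598, 1597 and 1587 with erlotinib. The groups lay tightly apart, with a log2 fold change of 0.93 ± 0.08 (limma adjusted p = 1.2e-09). The phosphatase genes PTPN2 and PTPN1 fell by 0.42 and by 0.34 on the log2 scale, whereas the phosphatase gene PTPN6 rose by 0.81. All 5 tested antigen presentation genes were higher, against 35.3% of all tested genes, although the groups of ERAP2 (0.46) overlapped. The largest rise was that of CIITA, the activator of MHC class II genes. CIITA had 38.6, 26.9 and 23.6 in DMSO and 83.1, 91.1 and 126 with erlotinib. Its groups did not overlap, at a log2 fold change of 1.73 ± 0.28 (limma adjusted p = 1.4e-05). B2M held 7 reads in all 6 libraries, and a second copy of this sequence lies on an alternate contig, so reads that fit both places can be lost.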

How the data were processed

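HCC827 RNA was sequenced in 6 libraries, 3 per group, and all were used. The authors mapped reads to GRCh38 with Bowtie2 2.3.4 and counted them per gene with featureCounts 1.6.3, and DESeq2 1.18.1 is named in the submitters' processing notes. The deposited values are signal, reads divided by 1 size factor per library: dividing each value by the signal of 1 read in its library gave a whole number (100% within 0.001), the ratio of the recovered size factors to those of DESeq2 was 1, and 1 read is worth a signal of 0.9228 to 1.134. Strand was not given in the sources used here. Since Bowtie2 aligns without splicing, reads over exon junctions can be lost.

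Groups came from the treatment labels. Genes whose mean signal reached 10 were tested on log2(signal + 1) with limma 3.58.1 (variance trend, two-sided, Benjamini-Hochberg adjustment over 14215 genes, threshold 0.05) in R 4.3.3. edgeR 4.0.16 and DESeq2 1.42.0 were run on recovered whole reads as alternatives, beside other scalings, filters and pseudocounts and the omission of each library. The limma, edgeR and DESeq2 fits were tested on simulated data with 200 genes changed, under the main filter. The other scalings, filters and pseudocounts and the omission of libraries were not simulated. Positions and promoters came from RefSeq (GRCh38.p14) and transcript lengths from GENCODE. Transcripts were aligned to 261 alternate contigs with minimap2, and 0 members had a copy there (90% of the transcript at 97% identity).

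The rule for the members names symbols and no measured value, but members and lists were chosen with earlier results of these data known. Values in every library were given for STAT2, IRF9 and IRF1, the 8 largest rises and all falls that passed, the most abundant member per kilobase, and members whose call or direction changed under total-count scaling; pathway genes with the largest change in each direction in a list were named. Values in every library of OAS1, OAS2, USP18, IFI6, IFITM2, VWF and LUM, those of pathway genes, and the neighbour ratios were chosen after the values were seen.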

Additional observations from a re-analysis of the deposited data

How the results depend on the processing

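Of the 58 tested members, 46 kept both their call and their direction in each alternative run for them. Among these were 42 of the 46 higher and 3 of the 4 lower. There were 14 alternatives, and 13 for RSAD2, CMPK2, TRIM22 and RTP4, which did not have 10 reads in every library. Scaling each library to its total count shifted the median of all genes from 0.02 to 0.19 and that of the members from 0.83 to 1.01. Under that scaling ISG15 (0.09) and PARP12 (0.05) turned from below to above 0 without passing, TRIM25 (-0.02, limma adjusted p = 0.743) no longer passed, and ADAR (0.20), NMI (0.38), IFIT5 (0.24) and SAMD9 (0.27) passed as higher. With no filter the median of all genes was 0.13. IFI6 no longer passed with DESeq2 (adjusted p = 0.055) or with no filter (limma adjusted p = 0.058).

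Leaving out 1 library at a time gave 42 to 46 members higher, 3 to 5 lower and a median of 0.75 to 0.84, with 4559 to 5127 of all genes higher, 4721 to 5080 lower, and 19 to 21 pathway genes higher and 6 to 7 lower. ADAR (-0.00) and IFIT5 (-0.01) turned just below 0 without DMSO3 and without Erlo6. TRIM25 (-0.17, limma adjusted p = 0.067) no longer passed without Erlo4, SP110 without DMSO3, Erlo5 or Erlo6, and IFI6 without DMSO2, DMSO3, Erlo5 or Erlo6, while NMI (0.29) and PARP12 (-0.21) passed without DMSO2. No paired analysis was possible because the labels number the erlotinib samples 1 to 3 but the table's columns number them 4 to 6, which could not be matched to those samples, so the planned replicate block was not run. With 3 libraries per group and as few as 8 reads in the DMSO library with the most, the size of change in the lowest members, such as RTP4 and RSAD2, is poorly fixed.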
